A study of Mus musculus with 3 samples.

Results

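The cells described here were T cells that carried 2 productive T cell receptor β chain (TRB) rearrangements under 1 cell barcode. They were taken from single-cell TCR sequencing (scTCR-Seq) of CD45+ cells sorted from the digested sciatic nerves of perfused neuropathic NOD.AireGW/+ mice, which carry 1 GW allele of Aire on the NOD background and develop spontaneous autoimmune peripheral neuropathy. Replicate 1 and replicate 2 came from 1 mouse each and replicate 3 from 2 pooled mice. All 3 libraries were of this 1 condition, the mice's age was not among the labels used here, and no control group was analysed here. A TRB was defined by its V gene, the nucleotide sequence of its CDR3 (the loop encoded across the V(D)J junction) and its J gene, and only productive contigs of called cells with a CDR3 were counted. By this rule replicate 1 held 114 such cells among 2374 (4.80%, 95% interval 3.98% to 5.74%), replicate 2 held 217 among 3555 (6.10%, 5.34% to 6.94%) and replicate 3 held 10 among 705 (1.42%, 0.682% to 2.59%). That is 341 of 6634 cells in all, and the mean over libraries was 4.11% ± 2.42 (SD, n = 3). No called cell had 3. Intervals here and below are exact Clopper-Pearson intervals, which cover counting error only and treat cells as independent, although cells of 1 clone are not.

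As background, the β chain locus rearranges first in a developing thymocyte, and a productive β chain halts further rearrangement on the other allele. This allelic exclusion leaves most T cells with a single β chain. The α chain locus (TRA) is excluded far less strictly, so that T cells with a pair of productive α chains are common. A T cell with 2 productive β chains may have escaped exclusion (allelic inclusion), in which case its descendants inherit both. In droplet sequencing the same readout also arises where 2 cells, or a cell and free RNA, share a droplet. The cells were therefore examined for whether their TRB pair recurred in other cells, for their number of TRAs, for the unique molecular identifiers (UMIs, counts of captured transcripts) of each chain, and for whether each TRB was found alone, meaning as the single TRB of another called cell in the same library.

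The cells were chosen by their TRB contigs, so the chains could not check that they were T cells. No immunoglobulin contig was found in the files of any library. These were TCR libraries, so that absence cannot show whether a B cell shared a droplet. A δ chain contig lay on 2, 7 and 0 of the cells with 2 TRBs in replicates 1, 2 and 3. No cell with 2 TRBs carried the invariant TRA of natural killer T cells (TRAV11 or TRAV11D with TRAJ18) or the TRA of mucosal-associated invariant T cells (TRAV1 with TRAJ33), and 0 of 341 cells allows a share of up to 0.880%. Among cells with 1 TRB the natural killer T cell TRA was found in 1, 5 and 1 cells of the 3 libraries and the mucosal-associated one in 1, 15 and 1. The libraries differed in depth, with 34630, 41338 and 5142 UMIs on TRA and TRB contigs of called cells and a median of 6, 5 and 3 UMIs per chain. Some cell barcodes occurred in more than 1 library, on 7, 10 and 3 cells, of which 1 had 2 TRBs, and no such barcode carried the same TRB in both libraries.

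The 341 cells held 311 distinct TRB pairs, 110, 191 and 10 in the 3 libraries, and 302 of these pairs were found in a single cell. The other 9 pairs recurred in 2 or more cells of the same library and held 39 cells, which were 7 of 114 (6.14%, 2.50% to 12.2%) for replicate 1, 32 of 217 (14.7%, 10.3% to 20.2%) for replicate 2 and 0 of 10 for replicate 3, where a count of 0 allows up to 30.0%. No pair was found in more than 1 library. Replicate 2 held the 3 largest, of 14, 8 and 4 cells, and replicate 1 held 1 of 3 cells. The remaining 5 were of 2 cells each. The CDR3 nucleotide sequences of the 6 pairs with the most cells and UMIs are given because they identify the clones described next. Capitals mark the bases between the stretches that match the germline V and J segments, where D segment and added bases lie.
Pair 1, TRBV16 with TRBJ1-6: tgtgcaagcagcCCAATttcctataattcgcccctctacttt
Pair 1, TRBV1 with TRBJ2-1: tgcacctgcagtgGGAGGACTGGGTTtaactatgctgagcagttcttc
Pair 2, TRBV15 with TRBJ1-4: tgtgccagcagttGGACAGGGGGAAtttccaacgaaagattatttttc
Pair 2, TRBV16 with TRBJ2-1: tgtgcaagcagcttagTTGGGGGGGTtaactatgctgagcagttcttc
Pair 3, TRBV15 with TRBJ2-7: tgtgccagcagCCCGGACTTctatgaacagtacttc
Pair 3, TRBV20 with TRBJ1-2: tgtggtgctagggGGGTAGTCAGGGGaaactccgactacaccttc
Pair 4, TRBV19 with TRBJ2-4: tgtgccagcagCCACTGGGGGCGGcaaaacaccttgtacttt
Pair 4, TRBV31 with TRBJ2-4: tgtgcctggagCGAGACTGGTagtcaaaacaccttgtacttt
Pair 8, TRBV1 with TRBJ2-1: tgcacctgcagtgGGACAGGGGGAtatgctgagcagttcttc
Pair 8, TRBV14 with TRBJ1-6: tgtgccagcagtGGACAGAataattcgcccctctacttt
Pair 9, TRBV23 with TRBJ1-4: tgctccagcagtcaa
Pair 9, TRBV31 with TRBJ2-7: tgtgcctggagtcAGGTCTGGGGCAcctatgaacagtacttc

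None of the 9 recurrent pairs used a single V gene for both TRBs. In pair 4 both TRBs used TRBJ2-4, so the sequences shared their 3′ end. The TRBV23 chain of pair 9 had a deposited CDR3 of only 15 bases that ended within its V segment and held no J bases, and it was the only recurrent TRB that lacked the closing phenylalanine. All segments lie in the β chain locus on chromosome 6 (GRCm38, GENCODE M21). TRBV1, at 40891229 to 40891885, is the segment farthest upstream, TRBV15 lies at 41141188 to 41141658 and TRBV16 at 41151740 to 41152230, all on the + strand. The TRBJ1 segments used lie between 41533864 and 41535606 and the TRBJ2 segments between 41542754 and 41543856. TRBV31, at 41557691 to 41558452 on the - strand, lies downstream of both J clusters and joins them by inversion.

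Every cell of a recurrent pair carried the TRA of its pair. The rule that chose the cells did not use TRAs, but no barcode with 2 TRBs and no TRA was called a cell. That each cell had a TRA was thus fixed by the cell calling, whereas which TRA it had was not. In 39 of 39 cells, spread over 9 of 9 pairs, all cells with the same TRB pair shared 1 TRA of identical V gene, CDR3 nucleotides and J gene. Cells with 1 TRB shared a TRA in the same way. For the most frequent TRB found alone in each library, the commonest TRA was on 249 of 250, 49 of 49 and 11 of 11 cells with a TRA. Pair 1 was found with TRAV14D-2 joined to TRAJ27, pair 2 with TRAV12D-2 and TRAJ34, pair 3 with TRAV14-3 and TRAJ53, pair 4 with TRAV4-3 and TRAJ23, pair 8 with TRAV14-3 and TRAJ56 and pair 9 with TRAV8D-1 and TRAJ48. None of these 9 TRAs was found with any other TRB, and none of the 18 TRBs was found in a second TRB pair. Cell Ranger had placed all cells of 7 of the 9 pairs in 1 clonotype, and the other two pairs were divided because 1 cell of each had a further TRA.

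In pair 1, 14 cells of replicate 2 held both TRBs. TRBV16 had from 2 to 27 UMIs per cell with a median of 7, and TRBV1 had from 2 to 23 with a median of 7. The TRBV16 chain had more UMIs in 6 of these cells, the TRBV1 chain in 4, and they were equal in 4. Neither chain was therefore the minor one throughout the clone. In pair 2, TRBV15 had from 3 to 19 UMIs with a median of 13 and TRBV16 from 3 to 16 with a median of 9.5 in 8 cells, and TRBV15 was the higher in 6 of them. In the 4 cells of pair 3, TRBV15 had 15, 10, 8 and 8 UMIs and TRBV20 had 6, 6, 5 and 5, so TRBV15 was the higher in all 4. In the 3 cells of pair 4, TRBV19 had 11, 4 and 3 UMIs and TRBV31 had 7, 5 and 3. The ranges of both TRBs overlapped in pairs 1, 2 and 4 and did not overlap in pair 3. Over the 9 pairs the median ratio of the lower to the higher chain ran from 0.242 in pair 7 to 0.800 in pairs 1 and 4.

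**Figure D1:**
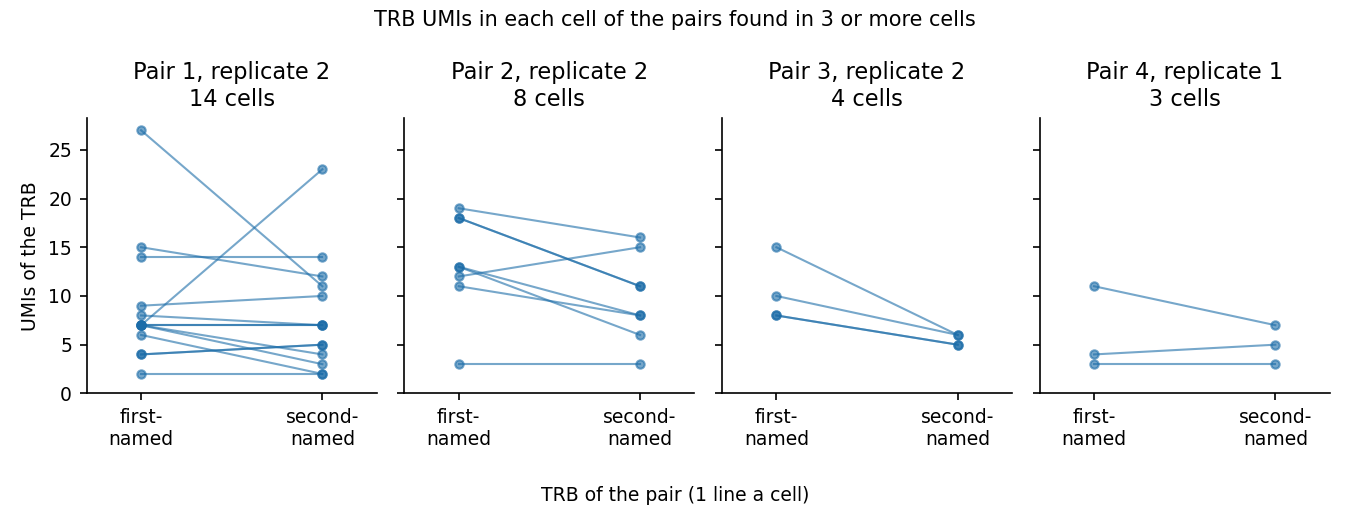
UMIs of the first-named and the second-named TRB (y axis, number of UMIs) in each cell of the 4 TRB pairs found in 3 or more cells, with 1 line per cell. Lines cross in pair 1, where each TRB was the higher in some cells, and all 4 lines fall in pair 3.

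Some cells held only 1 TRB of a recurrent pair. There were 12 of them, in pairs 1, 2 and 4, and 11 of the 12 carried the TRA of the pair while the other had no TRA. No such cell carried a different TRA. Pair 1 had 3 cells with TRBV16 alone and 1 with TRBV1 alone, so that 14 of 18 cells (77.8%, 52.4% to 93.6%) held both. Pair 2 had 4 cells with TRBV15 alone and 1 with TRBV16 alone, leaving 8 of 13 with both (61.5%, 31.6% to 86.1%). Pair 4 had 1 cell with TRBV19 alone and 2 with TRBV31 alone, leaving 3 of 6 (50.0%, 11.8% to 88.2%). In the other 6 pairs neither TRB was found alone. Cells with 1 TRB of a pair made up 23.5% (12.8% to 37.5%) of these 51 cells and had a median of 9.5 TRA and TRB UMIs (range 4 to 20), against 21 in the 39 cells with both. The sum in cells with both includes the UMIs of a further chain. The part of depth in the number of TRBs found in a clone was not tested.

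**Figure D2:**
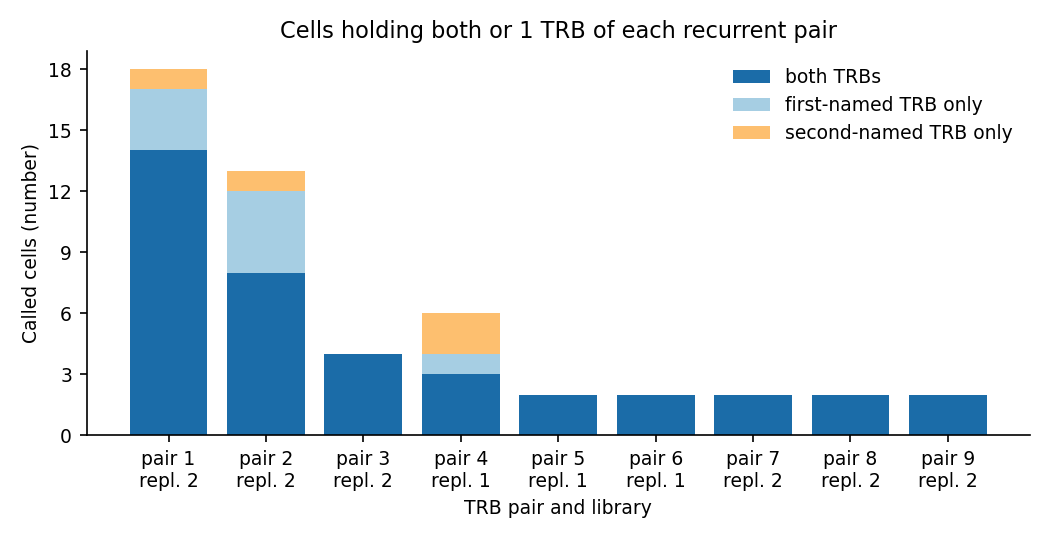
Number of called cells (y axis) that held both TRBs, the first-named TRB only or the second-named TRB only, for each of the 9 recurrent TRB pairs (x axis, with the library). Cells with a single TRB of the pair were found for pairs 1, 2 and 4, and in the other 6 pairs every cell held both.

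The share of cells with a second TRA was higher among cells with 2 TRBs than among cells with 1 TRB in all 3 libraries, and it was low where the TRB pair recurred. Of all cells with 2 TRBs, 2 TRAs were found in 42 of the 114 of replicate 1 (36.8%, 28.0% to 46.4%), 70 of the 217 of replicate 2 (32.3%, 26.1% to 38.9%) and 1 of the 10 of replicate 3 (10.0%, 0.253% to 44.5%). Among cells with 1 TRB and at least 1 TRA the share was 8.67% of 1754, 7.97% of 2408 and 4.90% of 388. The difference was 28.2, 24.3 and 5.10 percentage points, with a mean of 19.2, and against all cells with 1 TRB it was 29.7, 26.2 and 6.99 points with a mean of 21.0 ± 12.2 (SD, n = 3). It had the same sign in 3 of 3 libraries, and an exact two-sided sign-flip permutation test over the libraries gave p = 0.25 for the latter, the smallest value that 3 libraries allow. With only chains of at least 3 UMIs counted, the mean was 15.2 points, the sign turned in replicate 3 (-1.18 points) and the exact permutation p was 0.50.

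The split by recurrence was wide. Among the 302 cells whose TRB pair was found once, 111 had a second TRA (36.8%, 31.3% to 42.5%): 41 of 107, 69 of 185 and 1 of 10 in the 3 libraries. Among the 39 cells of recurrent pairs, 2 had one (5.13%, 0.627% to 17.3%), 1 of 7 in replicate 1 and 1 of 32 in replicate 2. These 2 cells belonged to pairs 6 and 8, so in 7 of 9 pairs no cell had a second TRA. No test was made of this split, because cells of 1 clone are not replicates and only 2 libraries held recurrent pairs.

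**Figure D3:**
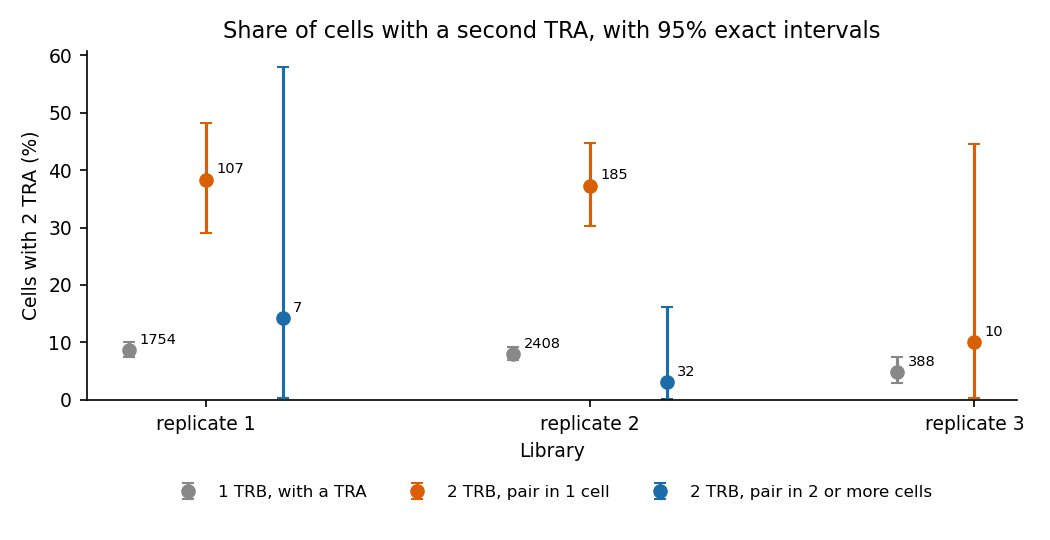
Share of cells with 2 productive TRAs (y axis, percent) in each library for cells with 1 TRB and a TRA, cells whose TRB pair was found once and cells of recurrent pairs, with 95% exact intervals and the number of cells beside each point. In replicates 1 and 2 the share for pairs found once lay at 38.3% and 37.3%, above the 8.67% and 7.97% of cells with 1 TRB, and replicate 3 had no recurrent pair.

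The sums of UMIs differed between these cells. The median number of TRA and TRB UMIs was 24, 20 and 15 in cells with 2 TRBs against 14, 10 and 7 in cells with 1 TRB and a TRA, and 12, 9 and 6 in all cells with 1 TRB. The log2 ratio against the last was 1.00, 1.15 and 1.32 (mean 1.16 ± 0.161, SD, n = 3), with p = 0.25 in the same exact sign-flip permutation test. A further chain adds its own UMIs to this sum. Counted on the more abundant TRB alone, the medians were 10, 9 and 6 UMIs in cells with 2 TRBs against 7, 6 and 4 in cells with 1. The more abundant of 2 chains is the higher by selection, so these medians do not measure depth alone. For the more abundant TRA, the medians were 6, 4 and 3 UMIs, against 5, 3 and 3 in cells with 1 TRB and a TRA. When each cell was thinned in expectation to 4 TRA UMIs, and cells with fewer were left out, the share with 2 TRAs was 37.8% of 91 cells with 2 TRBs against 10.2% of 1238 cells with 1 in replicate 1. In replicate 2 it was 37.9% of 155 against 11.9% of 1236. For replicate 3, with 5 deep enough cells, it was 20.0% against 11.7% of 139. In replicate 2 the thinned share was 4.90% of the 19 remaining cells of recurrent pairs and 42.5% of the 136 whose pair was found once. Thinned in expectation to 8 TRA and TRB UMIs, with cells of fewer left out, 5.39%, 8.87% and 3.83% of cells had 2 TRBs, and the libraries kept their order. A second TRB adds its own UMIs to the sum that a cell must reach to be kept. These shares are therefore raised by the limit and do not remove the part of depth.

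Read the other way, a second TRB was more frequent in cells that had a second TRA. In replicate 1, 42 of 194 cells with 2 TRAs and a TRB had 2 TRBs (21.6%), against 72 of 1674 with 1 TRA (4.30%). In replicate 2 the shares were 26.7% of 262 and 6.22% of 2363, and in replicate 3 they were 1 of 20 cells and 2.38% of 378, where the intervals overlapped.

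Cells with 2 TRBs and no TRA were missing from all libraries, and this was set by the cell calling. Outside the called cells, 252, 44 and 4 barcodes of the 3 libraries had 2 productive TRBs and no TRA, and 58, 102 and 0 had 3 or more TRBs, yet none of them was a called cell. Neither was any barcode with 3 or more TRAs. The upper limit of 2 chains of each kind and the presence of a TRA in every cell with 2 TRBs are therefore properties of the called cells and not results. Among cells with both a TRA and a TRB, 6.10%, 8.27% and 2.51% had 2 TRBs (mean 5.63% ± 2.91, SD, n = 3).

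The second TRB was usually well covered. Its median was 5, 5 and 4.5 UMIs in the 3 libraries, and 279 of 341 cells had at least 3 UMIs on it, while 45 had 2 and 17 had 1. The ratio of the lower to the higher TRB had a median of 0.542, 0.556 and 0.620 (mean 0.573 ± 0.0418, SD, n = 3). It was at least 0.5 in 225 cells and under 0.25 in 19. Since the lower chain is divided by the higher in each cell, the ratio cannot exceed 1 and falls below it through sampling alone where UMIs are few. In replicate 2 the median was 0.625 in the 32 cells of recurrent pairs, 0.533 in cells with a pair found once and 1 TRA, and 0.500 in cells with a pair found once and 2 TRAs. The quartiles of these sets overlapped, so the ratio did not separate them. In replicate 1 the corresponding medians were 0.500, 0.571 and 0.522, in another order.

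**Figure D4:**
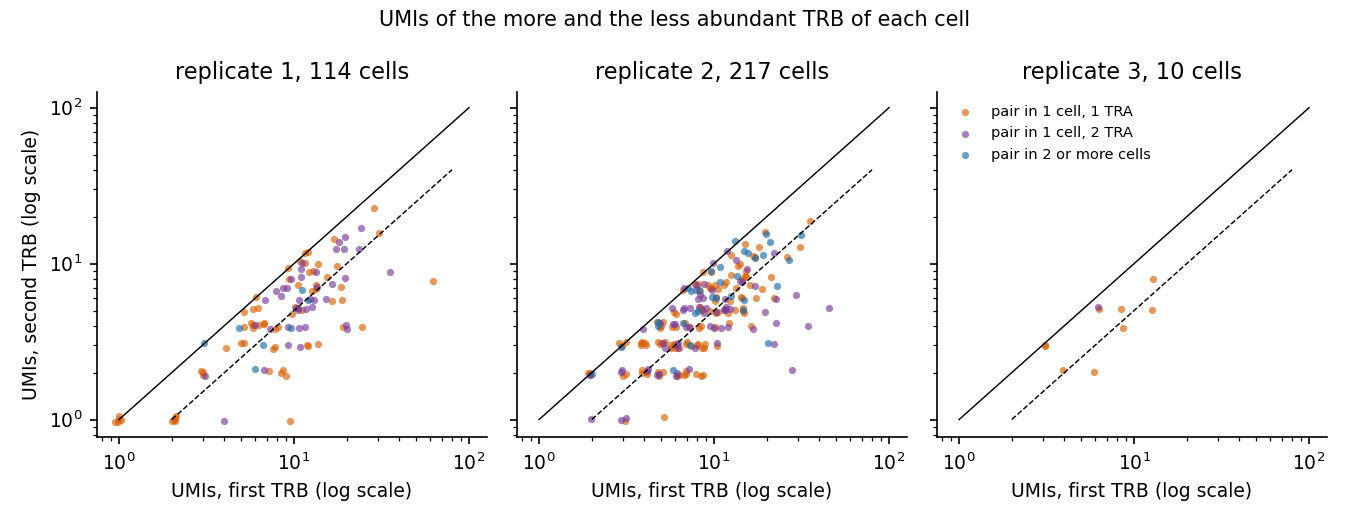
UMIs of the more abundant TRB (x axis) and the less abundant TRB (y axis) of each cell with 2 TRBs, on log scales, in replicates 1, 2 and 3. Points are moved slightly at random so that equal values can be seen; the solid line marks equal UMIs and the dashed line a ratio of 0.5, and the 3 classes of cells overlap.

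Next, the other called cells of each library were searched for the TRBs of the 302 cells whose pair was found once. Each such cell was placed in 1 of 5 classes. In 12 cells (3.97%, 2.07% to 6.84%), 7 of them in replicate 1 and 5 in replicate 2, each TRB was found in another cell together with a TRA of the cell. All 12 had 2 TRAs. In 42 cells (13.9%, 10.2% to 18.3%), 1 TRB was found with a TRA of the cell and the other was found elsewhere without it. In 32 of these 42 the other TRB was accompanied elsewhere by a TRA that the cell lacked. In 78 cells (25.8%, 21.0% to 31.2%), 1 TRB was found with a TRA of the cell and the other in no other cell. In 46 cells (15.2%, 11.4% to 19.8%) a TRB was found elsewhere, though never with a TRA of the cell, and in 124 (41.1%, 35.5% to 46.8%) neither TRB was found in another called cell. Whether the TRAs of those 124 cells occurred elsewhere was not examined.

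**Figure D5:**
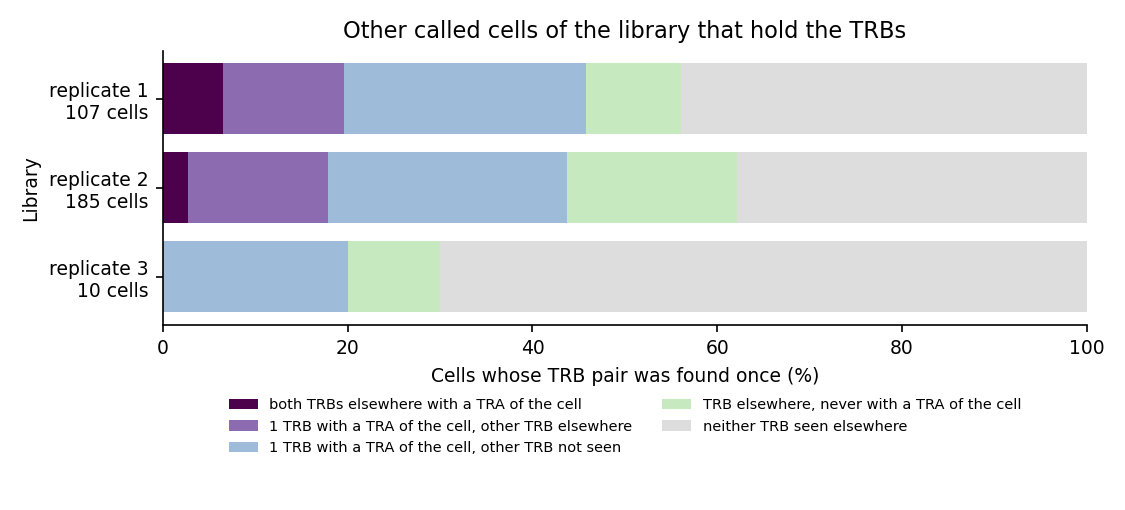
Cells with a TRB pair found once (x axis, percent of cells in each library) by whether their TRBs were found in other called cells, and whether with a TRA of the cell. The class with neither TRB elsewhere was the widest in each library, with 43.9%, 37.8% and 70.0% of the 107, 185 and 10 cells.

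In the 78 cells whose other TRB was not seen elsewhere, 44 had a second TRA (56.4%, 44.7% to 67.6%), and in the 124 with neither TRB elsewhere 35 had one (28.2%, 20.5% to 37.0%). In the first class all 12 cells had 2 TRAs, which is partly set by its definition, since a cell needs both TRAs to link 2 different clones. Of the 42 cells of the second class, 7 had a second TRA (16.7%, 6.97% to 31.4%). A cell with a TRA for each of its TRBs falls in the first class, so the definition bears on this share as well. The TRB that matched the rest of the clone was the more abundant one in 41 of the 78 cells (52.6%) and in 23 of the 42 (54.8%), so the chain that a clone shared was about as often the lower one.

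In 11 cells, 7 from replicate 1 (6.14% of 114), 4 from replicate 2 (1.84% of 217) and 0 from replicate 3, the chains formed 2 TRA and TRB combinations that each occurred as the sole chains of other cells. The 4 named here are the 2 of each library chosen by a rule on these values. In replicate 1, a cell held TRBV5 with TRAV7N-4, the combination of 6 other cells, and TRBV13-1 with TRAV9-1, that of 3 other cells, with 9 and 7 TRB UMIs. A further cell held TRBV16 with TRAV13-1 and TRBV3 with TRAV5-1, each found in 3 other cells, with 16 and 6 TRB UMIs. In replicate 2, a cell held TRBV19 with TRAV4-2, found in 2 other cells, and TRBV13-3 with TRAV7D-4, found in 6, with 9 and 5 TRB UMIs. Another held TRBV13-3 with TRAV6-6, found in 4, and TRBV5 with TRAV7D-3, found in 1, with 10 and 3 TRB UMIs. The crossed combinations of TRA and TRB were found in 0 other cells for all 4. The TRB sequences of the first of these cells are given as an example, with capitals as above. Both used TRBJ2-7 and shared most bases outside the capitals.
Replicate 1, TRBV5 with TRBJ2-7: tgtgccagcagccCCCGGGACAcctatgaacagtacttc
Replicate 1, TRBV13-1 with TRBJ2-7: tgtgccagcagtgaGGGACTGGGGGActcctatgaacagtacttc
None of the 11 belonged to a recurrent pair. The definition needs 2 different TRAs, which only 2 of the 39 cells of recurrent pairs had, so this absence shows little. By the same definition all 11 had 2 TRAs, and a further chain adds its own UMIs. Their median was 42 TRA and TRB UMIs in replicate 1, against 24 in all cells with 2 TRBs there and 30 in those with 2 TRAs. In replicate 2 it was 22.5, against 20 and 23.

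The other cells of a clone were also searched for the second TRB. In 60 TRB pairs, 1 TRB was found with a TRA of the pair in at least 3 other cells. Of these, 56 were pairs found in a single cell, for which the absence of the second TRB from the 290 other cells is fixed by definition and shows nothing. In the remaining 4 pairs, 25 of 33 other cells held it, with shares of 50.0% to 100% per pair. These 4 were recurrent pairs, for which some cells with it are likewise given by the definition.

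In replicates 1 and 2, TRBs found alone in over 20 cells were scarce among cells whose TRB pair was found once. Cells of recurrent pairs were left out of this comparison, although pair 1 reached 18 cells. Only cells with 1 TRB count towards a TRB found alone. In cells with a pair found once, the more abundant TRB was found alone in another cell for 36.4% of the 107 cells of replicate 1 (27.4% to 46.3%), 38.9% of the 185 of replicate 2 (31.9% to 46.3%) and 30.0% of the 10 of replicate 3. The less abundant one was found alone in 38.3%, 38.9% and 0%. For the TRB of a cell with 1 TRB and a TRA, the share found alone in a further cell was 54.7% of 1754, 56.1% of 2408 and 27.6% of 388. TRBs found in over 20 other cells made up 17.7% of the TRBs of cells with 1 TRB and a TRA in replicate 1 (311 cells) and 9.93% in replicate 2 (239 cells), while 1 of the 107 cells and 1 of the 185 carried such a TRB. Of the 311 cells of replicate 1, 250 carried the same TRB, TRBV19 with TRBJ2-4, so the share there rested largely on 1 TRB. TRBs found in 6 to 20 other cells made up 9.52% and 17.3% for cells with 1 TRB and a TRA, against 6.54% and 4.32% for the more abundant TRB of a pair and 3.74% and 5.41% for the less abundant. TRBs found in 1 to 5 other cells made up 27.4% and 28.9% for cells with 1 TRB and a TRA, against 29.9% and 34.1% for the more abundant TRB of a pair.

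The most frequent TRB of replicate 1, chosen after its values were seen, was TRBV19 joined to TRBJ2-4 with a CDR3 of 12 amino acids. It was the sole TRB of 365 cells, 17.1% of the 2139 with 1 TRB, and was found in 0 of the 114 cells with 2 TRBs, which allows a share of up to 2.63%. Outside the called cells it was on 2256 barcodes, and it was 1 of the TRBs on 253 of the 457 barcodes there that had 2 or more. The most frequent TRB of replicate 2, TRBV5 joined to TRBJ2-1, was alone in 96 cells, in 0 of 217 cells with 2 TRBs (up to 1.38%) and on 46 of 298 barcodes with 2 or more TRBs outside the called cells. Barcodes with these TRBs and another TRB were thus present in the libraries and were not among the called cells. The part of cell calling in the share of cells with 2 TRBs was not tested.

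Recurrent pairs were also found outside the called cells. A further 19 barcodes carried both TRBs of a recurrent pair, 9 of them for pair 1, 3 for pair 2 and 5 for pair 3, and 13 of the 19 also held the TRA of the pair. Of these barcodes, 12 had 3 or more TRBs and 10 had 2 or more TRAs. No TRA was found on 5 of the 19, among them all 3 of pair 2. The more abundant TRB of a recurrent pair was also found on a barcode outside the called cells for 3 of 7 cells in replicate 1 (42.9%) and for all 32 in replicate 2. These cells came from only 3 and 6 pairs, and cells of 1 pair share their TRBs. The same held for 48.6% of the 107 and 33.5% of the 185 cells with a pair found once, and for the TRB of 60.1% and 45.3% of cells with 1 TRB, so the libraries went in different directions.

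Pooled over libraries, the 5 V genes named here and TRBJ2 had similar shares among TRBs of cells with 2 TRBs and with 1. The other V genes and the single libraries are not described here. The 588 distinct TRBs of cells with 2 used TRBV5 in 12.2% (9.71% to 15.2%), against 9.83% of 3488 distinct TRBs of cells with 1. TRBV13-1 made up 9.69% against 8.40%, TRBV16 8.67% against 7.11% and TRBV19 8.16% against 8.43%. TRBs listed under the joint name TRBV12-2+TRBV13-2 made up 9.18% against 10.7%. For these 5, the most frequent among cells with 2 TRBs, the intervals of both sets overlapped. TRBJ2 segments made up 62.6% against 66.3%. The CDR3 had a median of 14 amino acids in both sets, and the bases between the V and J matches had a median of 10 in both. They averaged 9.79 ± 3.79 in 504 TRBs of cells with 2 TRBs and 9.91 ± 3.82 in 2977 TRBs of cells with 1 (SD over TRBs).

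Within pairs, 23 of 311 used the same V gene in both TRBs, and no such pair recurred. Where both CDR3s of a cell had the same length, they differed at 7 bases or more. CDR3s of unequal length were not compared base by base. Pairs with 1 TRBJ1 and 1 TRBJ2 chain made up 46 of 110 in replicate 1 and 100 of 191 in replicate 2. All 6 recurrent pairs of replicate 2 were of this kind, whereas all 3 of replicate 1 used 2 TRBJ2 segments.

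A diploid cell has a pair of β chain alleles, so nonproductive TRBs were counted as well. A further nonproductive TRB of another V and J combination was found in 42 of 341 cells with 2 TRBs (12.3%, 9.02% to 16.3%) and in 528 of 4550 cells with 1 TRB and a TRA (11.6%, 10.7% to 12.6%), for which it is a second rearrangement. Within the cells with 2 TRBs it lay on 3 of 39 cells of recurrent pairs (7.69%, 1.62% to 20.9%), on 18 of 191 with a pair found once and 1 TRA (9.42%, 5.68% to 14.5%) and on 21 of 111 with a pair found once and 2 TRAs (18.9%, 12.1% to 27.5%). In the last set replicate 1 had 29.3% of 41 and replicate 2 had 13.0% of 69, against 7.58% of 66 and 11.2% of 116 with 1 TRA. The gap was thus found in replicate 1, where the intervals overlapped slightly (16.1% to 45.5% against 2.51% to 16.8%), and in replicate 2 they overlapped widely. Cells with 2 TRAs also had more TRA and TRB UMIs, with medians of 31 against 20 in replicate 1 and 23 against 18 in replicate 2. The part of depth in this gap was not tested.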

How the data were processed

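The data were 10X Genomics V(D)J libraries of sciatic nerve CD45+ cells from neuropathic NOD.AireGW/+ mice, grouped by the labels as 1 condition with 3 libraries from 4 mice. The authors processed the reads with Cell Ranger on mm10 (version not given in the sources used here), which assembled contigs and called cells. The deposited tables gave, per contig, counts of UMIs and reads, V and J genes, CDR3 and length in bases, and per Cell Ranger clonotype a count of cells. The authors' contig files had 18 columns in replicate 1 and 31 in replicates 2 and 3, so software versions may differ. Consensus files and clonotype proportions were not used, and gene expression was not analysed here.

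Productive TRA and TRB contigs of called cells with a CDR3 were kept, and contigs of 1 barcode with the same V gene, nucleotide CDR3 and J gene were summed. Cells with 2 TRBs were compared with cells with 1 TRB within each library. Differences were tested over libraries, with cells never taken as replicates, by an exact two-sided sign-flip permutation test whose smallest p with 3 libraries is 0.25. Intervals of shares are 95% Clopper-Pearson ones. Where a count was 0, the limit given is that of 3 counts. Thinning was computed exactly, as the expected share when 4 or 8 UMIs are taken from each cell. Libraries held 34630, 41338 and 5142 UMIs, so replicate 3, with 10 cells, carries the least precision. Junctions were matched to GRCm38 segments with GENCODE M21. The pairs named are those in 3 or more cells, then pairs of 2 cells by summed UMIs up to 6 in all, and up to 2 cells per library with 2 known TRA and TRB combinations. V genes named are the 5 with most distinct TRBs. The cells and lists were chosen with earlier results of these data known. Counting was tested on simulated contigs. Alternatives were the identity of a TRB, minimum UMIs, thinning, the limits for recurrence and for a TRB found alone, and each library left out. Added after the data were seen were cells with 1 TRB and a TRA for comparison, each pair counted once, and the largest pair left out. Software was scipy 1.17.1, numpy 2.4.6, pandas 2.3.3, matplotlib 3.10.9 and pysam 0.24.0 under Python 3.11.15.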

Additional observations from a re-analysis of the deposited data

Results flagged for a closer look

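Barcodes that Cell Ranger did not call as cells also carried 2 or more productive TRBs, a signal outside the cells described above. There were 457 such barcodes in replicate 1 (7.12% of 6422 barcodes with a TRB outside the called cells), 298 in replicate 2 (30.1% of 991) and 6 in replicate 3 (1.12% of 536), each above the limit of 3 counts. Their TRBs had a median of 2, 15 and 4.5 UMIs in total per barcode, against 15, 14 and 11 in called cells with 2 TRBs.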

How the results depend on the processing

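Of 116 recomputed values, 112 stayed within the limits set, 4 moved and 0 reversed. For the tested differences the limit was only the sign of the mean. For shares and the ratio of the 2 TRBs it was 1 SD over libraries, which is wide. That SD exceeded the mean for the share in recurrent pairs (6.96%, SD 7.41) and with 2 known combinations (2.66%, SD 3.15). Merging TRBs at most 1 base apart and keeping only cells with exactly 2 TRBs could change nothing, given the TRBs found. With chains of at least 3 UMIs the ratio of the lower to the higher TRB rose from 0.573 to 0.631, which follows from leaving out weak second chains. Counting only pairs of 3 or more cells left 4 recurrent pairs in place of 9, and leaving out each library gave 3 to 9 recurrent pairs, with 3 without replicate 2. Requiring 2 or more cells for a TRB to count as found alone raised the mean share of cells with neither TRB found alone from 51.4% to 74.1%, and the share with both found alone fell from 15.5% to 5.78%. With chains of at least 3 UMIs the difference in cells with 2 TRAs was 15.2 points (exact sign-flip permutation p = 0.50), and its sign turned in replicate 3, at -1.18. With thinning the mean share of cells with 2 TRBs was 6.03% in place of 4.11%, over the deeper cells only, which a second TRB helps a cell to be among. Without a library in turn, this share ranged from 3.11% to 5.45%, the share of cells in recurrent pairs from 3.07% (without replicate 2) to 10.4%, and that of cells with 2 known combinations from 0.922% (without replicate 1) to 3.99%. The difference in cells without a TRA (mean -26.7 points) was set by cell calling. No paired analysis was possible because there was 1 group of libraries and none to pair it with. The comparisons of cells with 2 and with 1 TRB were made within each library. Replicate 3 had 10 cells with 2 TRBs, which leaves the widest intervals.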
